A study of Citrus reticulata and Citrus x clementina and Citrus x paradisi with 16 samples.

Results

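The stage by cultivar interaction in grapefruit and pummelo ovules was measured as the difference between 2 changes. The first was the change from the stage before nucellar embryo initiation (pre-NEI) to the stage of nucellar embryo initiation (NEI) in 'Cocktail' grapefruit (GF), whose seeds are polyembryonic. The second was the change over the same days in 'Huanong red' pummelo (PU), whose seeds are monoembryonic. Both cultivars were sampled at 0 days after flowering (pre-NEI) and 3 days after flowering (NEI), and flowers of both had been pollinated by hand with trifoliate orange. Per the methods of the study, initiation cells were seen at 3 days in GF only, so that in PU the word NEI marks the matching day and not the event. Each of the 4 groups had 2 libraries of pooled whole ovules, collected in consecutive years without a statement of which replicate is from which. Each embryo type was represented by 1 cultivar, so that embryo type and any other difference between GF and PU cannot be told apart. The 8 libraries belong to a series of 16, in which the other 8 came from 2 mandarins.

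All loci that passed the filter on low counts entered the comparison, with no choice by outcome. Of the 22595 loci in the deposited table, 19943 had at least 1 CPM in at least 2 of the 8 libraries and were tested. CPM are counts divided by the library total in megacounts (10 to the power 6 counts), and the levels given were further scaled by TMM factors, which adjust for library composition. A locus is a stretch of genome to which 1 or more assembled transcripts were assigned. The transcript with the largest total over the 8 libraries gave the count of the locus.

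In nucellar embryony, cells of the nucellus, a maternal tissue of the ovule, become embryos without fertilisation, and the resulting seedlings are copies of the mother plant. The initiation cells differ from their neighbours by dense cytoplasm, a large nucleus and a thickened wall. Ovules of both kinds of cultivar also go on developing after flowering, and the same days in a cultivar without nucellar embryos give a stage change to set beside that of the polyembryonic one. A positive log2 difference therefore means that the level moved up in GF relative to its movement in PU, and a negative one that it moved down in GF relative to PU, whatever the cultivars' own levels were.

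The libraries held totals of 11.8 to 34.2 megacounts over loci, and a count of 0 allowed up to 3 counts, or 0.0877 to 0.253 CPM depending on the library. These floors cover counting error only, while the 95% intervals of log2 differences come from the fit and cover the spread between libraries. Of the loci tested, 508 had a group with no count in either library, and the fitted log2 difference of such a locus depends on a prior count and is no bound. Since whole ovules were sequenced, fewer cells of a type and less RNA per cell cannot be told apart. 2 markers of other tissues gave no sign of an interaction. The pollen-specific protein C13-like gene (Cs3g18550) had a log2 difference of -0.35 (95% interval -2.24 to 1.53) and the Rubisco small subunit gene (Cs6g18680), a marker of green tissue, one of 0.18 (-0.71 to 1.07). Both signs turned without 1 of the GF libraries. Both markers were at 38.7 CPM or more in every library, and the C13-like gene was taken as a pollen marker from its name. Whether these transcripts came from pollen, green tissue or the ovule itself was not tested, nor was their part in the results.

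No locus passed the test of the interaction. With the edgeR quasi-likelihood test and Benjamini-Hochberg adjustment, 0 of 19943 loci (0%) had an adjusted p under 0.05 and an absolute log2 difference of at least 1, and the smallest adjusted p was 0.173. At an unadjusted p under 0.05 there were 2338 loci (11.7%), of which 1385 were positive (6.94% of the loci tested) and 953 negative (4.78%). The balance of the signs depended on the scaling. With upper-quartile factors, which moved the median log2 difference of all loci from 0.01 to -0.12, 981 were positive and 1220 negative. The balance also turned without replicate 1 of pre-NEI PU (980 positive, 1640 negative), without replicate 1 of NEI GF (734 and 981) and without replicate 2 of pre-NEI GF (826 and 890).

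The other tests divided. Limma-voom called 0 loci (0%), with 2359 at an unadjusted p under 0.05. The edgeR likelihood ratio test called 264 loci (1.32%), 133 of them positive (0.667%) and 131 negative (0.657%). The DESeq2 Wald test gave an adjusted p to 17236 loci and called 456 (2.65%), 251 positive (1.46%) and 205 negative (1.19%). Both of these called 243 loci (1.41%), 127 positive (0.737%) and 116 negative (0.673%), which is 92% of the likelihood ratio calls and 53.3% of the DESeq2 calls. A gene named as called by 2 of 4 tests is 1 of these 243 and did not pass the main test. The 2 tests that called loci take the fitted spread between libraries as known, whereas the quasi-likelihood test and limma-voom allow for its error. A call by both is therefore no separate support. The design left 4 residual degrees of freedom, and the median distance from the estimate to either end of the 95% interval was 1.52 on the log2 scale.

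**Figure D1:**
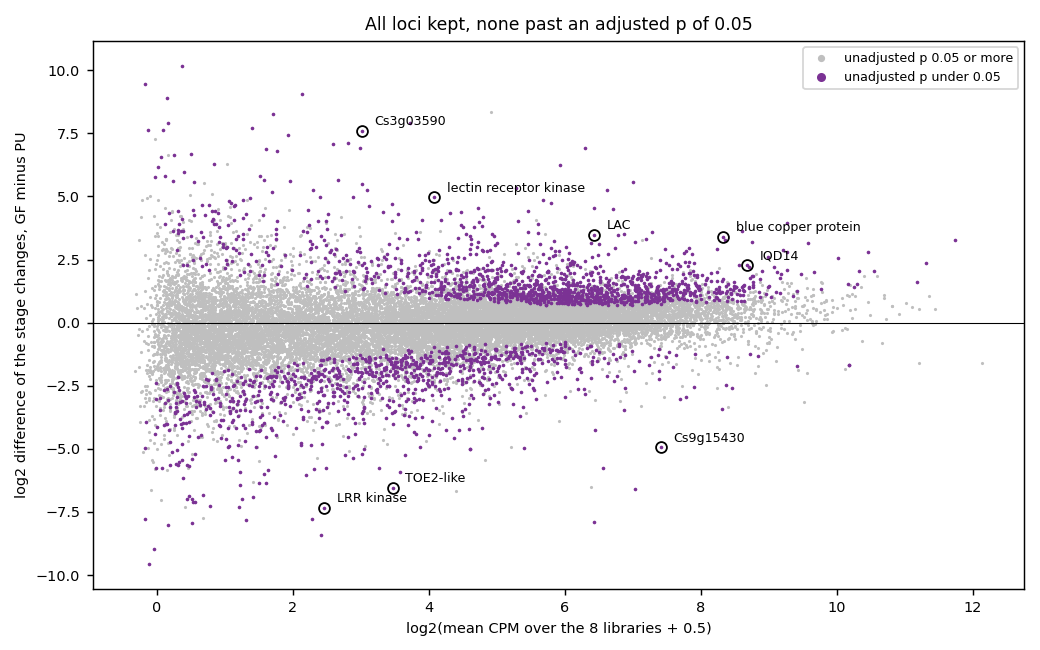
Log2 difference of the stage changes (GF minus PU, vertical axis) against the mean level over the 8 libraries as log2(CPM + 0.5) (horizontal axis), 1 point per locus for 19943 loci. Purple points are the 2338 loci at an unadjusted p under 0.05, and circled points are genes described in the text, from the leucine-rich repeat kinase gene Cs2g12140 at -7.33 to Cs3g03590 at 7.61.

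Large differences were common. The 25th and 75th percentiles of the log2 difference were -0.69 and 0.61, the 5th and 95th percentiles were -2.26 and 1.73, and 6380 loci (32%) had an absolute log2 difference of at least 1. As a description that needs no variance model, the interaction was also computed for each of the 16 ways of taking 1 library per group, on log2(CPM + 0.5). It had the same sign in all 16 at 5956 loci (29.9%), 3284 of them positive (16.5%) and 2672 negative (13.4%). It was at least 1 in size and of the same sign in all 16 at 757 loci (3.8%), 347 positive (1.74%) and 410 negative (2.06%).

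The 1385 positive loci at an unadjusted p under 0.05 had a median level of 53.7 CPM, against 16.5 CPM over all loci tested and 10.2 CPM for the 953 negative loci. Of the positive loci 5.56% carried no reference gene, against 17.9% of all loci and 14.5% of the negative ones. In most of the positive loci the mean was highest in NEI GF (66.2%) and lowest in NEI PU (76.5%). Over all loci the same groups were highest and lowest in 24.2% and 33% of cases. In the negative loci the order was the reverse, with NEI PU highest in 71% and NEI GF lowest in 70.2%. A share of this kind follows in part from the sign of the contrast itself. The 9 chromosomes of the sweet orange genome and the unanchored sequence had similar shares of loci at an unadjusted p under 0.05, from 10.5% on the unanchored sequence to 13.5% on chromosome 8.

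A laccase gene, a blue copper protein gene and a glucanase gene had positive differences that 2 of 4 tests called. LAC (Cs6g07400, chromosome 6, bases 9231008 to 9234353), a laccase-7-like gene and predicted miR397 target, encodes a copper oxidase of the kind that couples phenolic units such as monolignols in the wall. It was at 71.2 and 137 CPM in pre-NEI GF, 236 and 236 CPM in NEI GF, 3.15 and 3.45 CPM in pre-NEI PU, and 1.01 and 0.268 CPM in NEI PU. Every GF library was above every PU library, the 2 NEI GF libraries were the highest and the 2 NEI PU libraries the lowest. The NEI PU libraries held only 20 and 4 counts, so the size of the difference is uncertain beyond the interval. The log2 difference was 3.49 (SE 0.72, 95% interval 1.80 to 5.17, n = 2 per group, edgeR adjusted p = 0.301, with 0.00109 to 0.334 over the alternatives that kept all libraries).

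A blue copper protein gene (Cs4g18120, chromosome 4, bases 17733097 to 17735131), one of the small electron carriers of the cell surface, had the same order of groups. It was at 175 and 217 CPM in pre-NEI GF, 1192 and 777 CPM in NEI GF, 56.2 and 83.2 CPM in pre-NEI PU, and 46.8 and 19.2 CPM in NEI PU. No 2 groups overlapped, and NEI GF was highest. This gave a log2 difference of 3.40 (SE 0.67, 1.83 to 4.98, adjusted p = 0.28, alternatives 0.00046 to 0.298).

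The glucan endo-1,3-beta-glucosidase gene Cs4g09780 (chromosome 4, bases 6519035 to 6521262) encodes an enzyme that cuts callose-type glucan. Its levels were 73.6 and 63.9 CPM in pre-NEI GF, 117 and 79.6 CPM in NEI GF, 49.3 and 45.9 CPM in pre-NEI PU, and 14.3 and 7.64 CPM in NEI PU. The NEI PU libraries stood well below the other 6. The difference of the changes was 2.63 (SE 0.49, 1.48 to 3.78, adjusted p = 0.28, alternatives 0.00117 to 0.297).

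The acidic endochitinase-like gene ACTL (Cs9g14710), which encodes a chitin-cutting enzyme of the defence type, was at 8.59 and 19.9 CPM in pre-NEI GF, 29 and 56.3 CPM in NEI GF, 4.67 and 5.85 CPM in pre-NEI PU, and 3.32 and 2.21 CPM in NEI PU. Again no 2 groups overlapped. On the log2 scale the interaction was 2.50 (SE 0.73, 0.78 to 4.21, adjusted p = 0.335), and neither DESeq2 nor the likelihood ratio test called it. The chitinase gene CHI (Cs5g21870) had 0 to 3 counts in each PU library. With 1.11 to 3.58 CPM in GF, an interaction was not detectable at this depth.

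As a list, the chitinase, glucanase and thaumatin-like genes had 4 loci tested, of which 0 were called. Of the 4, 2 were at an unadjusted p under 0.05 (50%, against 11.7% of all loci) and 3 were positive (75%, against 50.5%). The median log2 difference was 1.60 against 0.01 over all loci. ACTL, CHI and the glucanase gene are in the study's list of genes that differ between poly- and monoembryonic ovules, chosen on these same samples. These shares are therefore no independent evidence. The 3 laccase loci were all positive (100%, against 50.5%), but only LAC was at an unadjusted p under 0.05 (33.3%, against 11.7%). Of the other 2, Cs6g07410 had a single count in the 4 PU libraries together and Cs6g07450 had a difference of 0.24 (-1.56 to 2.03), whose sign turned without 1 library. With Cs6g07410 at its floor, the median of the 3 moved from 3.49 to 0.24. The wall list was mixed. In pectinesterases and other wall enzymes 1 of 4 loci was positive (25%, against 50.5% of all loci) and 3 were negative. Of the negative loci 1 was at an unadjusted p under 0.05 (25% of the 4 loci, against 11.7% of all loci).

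That locus was Cs4g06980, which encodes a member of the invertase and pectin methylesterase inhibitor family. It was at 22.3 and 9.37 CPM in pre-NEI GF, 15.8 and 12.2 CPM in NEI GF, 15.9 and 6.66 CPM in pre-NEI PU, and 50.5 and 51.6 CPM in NEI PU. The NEI PU libraries were above the other 6, which overlapped each other. The interaction came to -2.34 (-4.09 to -0.60, adjusted p = 0.341). The arabinofuranosidase gene Cs9g02570 had replicates that lay far apart. Its pre-NEI libraries differed from 233 to 1540 CPM in GF and from 87.0 to 719 CPM in PU, and its log2 difference of -3.32 had an interval of -6.92 to 0.28. The pectinesterase 2 gene orange1.1t00214 was at 1.72 (-0.63 to 4.07).

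**Figure D2:**
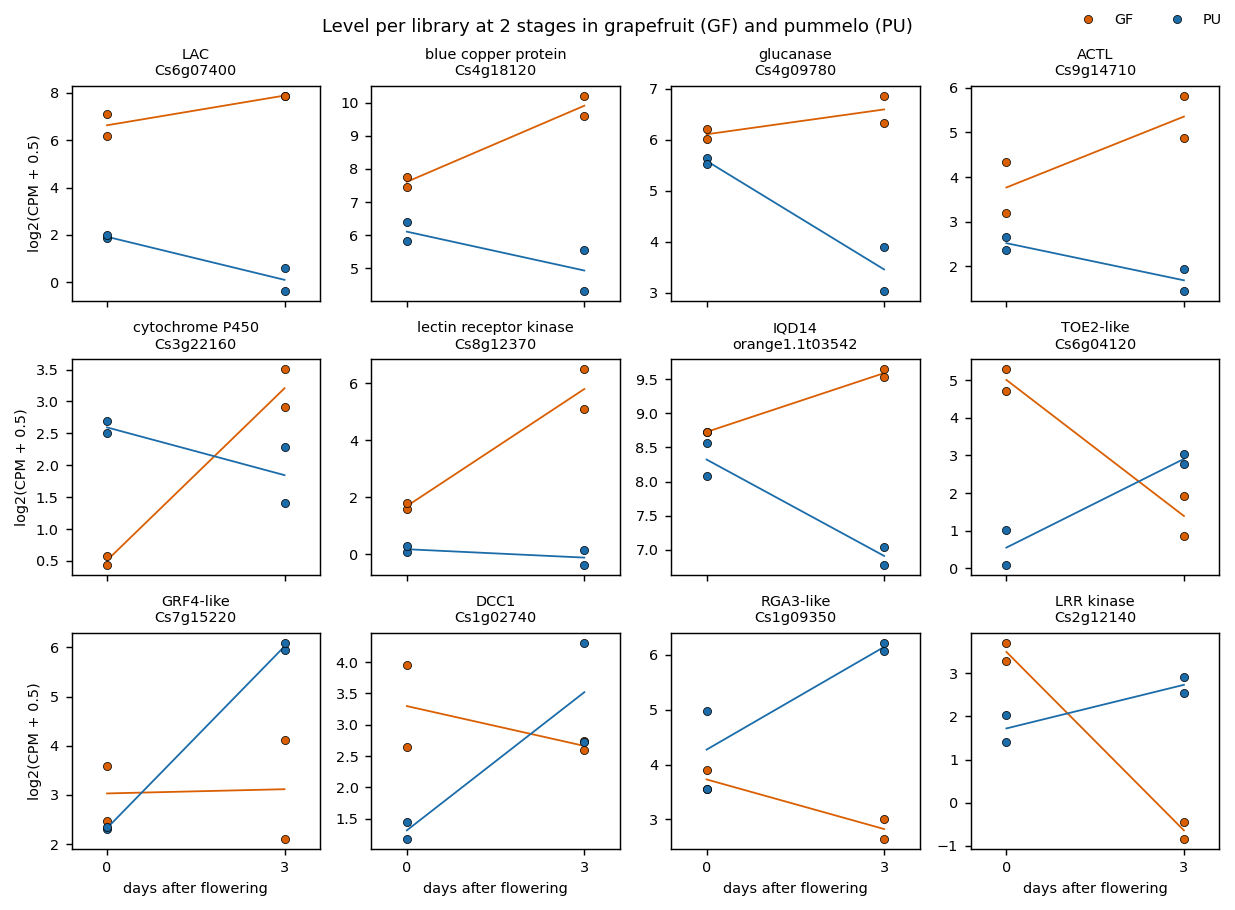
Level as log2(CPM + 0.5) in each of the 8 libraries for 12 genes at 0 and 3 days after flowering (points, 2 libraries per group) with lines through the group means, GF in orange and PU in blue. In the first 7 panels the GF line moves up relative to the PU line, as in LAC with 236 and 236 CPM in NEI GF. In the last 5 it moves down relative to the PU line, as in the GRF4-like gene with 61.3 and 67.7 CPM in NEI PU. The lines cross in some panels, such as those of Cs3g22160 and the TOE2-like gene.

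Enzymes of oxidative and secondary metabolism differed in both directions. The cytochrome P450 gene Cs3g22160 was at 0.998 and 0.852 CPM in pre-NEI GF, 10.9 and 7.00 CPM in NEI GF, 5.16 and 5.93 CPM in pre-NEI PU, and 4.38 and 2.14 CPM in NEI PU. The cultivars changed places between the stages, with GF below PU at 0 days and above it at 3 days. The estimate was 4.03 (SE 0.73, 2.33 to 5.73, adjusted p = 0.28, alternatives 0.000216 to 0.331).

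The isoflavone 2'-hydroxylase-like locus (Cs3g15630 and Cs3g15640), another P450, was at 37.8 and 71.6 CPM in pre-NEI GF, 86.5 and 91.6 CPM in NEI GF, 49.6 and 93.6 CPM in pre-NEI PU, and 9.41 and 15.5 CPM in NEI PU. The 2 NEI PU libraries were the lowest of the 8. The log2 difference was 3.23 (SE 0.63, 1.76 to 4.69, adjusted p = 0.28, alternatives 0.0012 to 0.298), and the count of the locus may come from either reference gene. In the list of lipoxygenases and cytochromes P450, 6 of 8 loci were positive (75%, against 50.5% of all loci) and the median was 1.30. At an unadjusted p under 0.05 there were 2 (25%, against 11.7%), Cs3g22160 and the isoflavone 2'-hydroxylase-like locus. Both are in the study's list of differing genes, chosen on these same samples, so this share is no independent evidence.

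The tropinone reductase-like locus (Cs8g19070 and Cs8g19105), named for a family of short-chain dehydrogenases, was at 19 and 12.6 CPM in pre-NEI GF, 6.0 and 4.98 CPM in NEI GF, 153 and 135 CPM in pre-NEI PU, and 308 and 302 CPM in NEI PU. No 2 groups overlapped, and all PU libraries were above all GF libraries. This gave a log2 difference of -2.59 (SE 0.39, -3.50 to -1.69, adjusted p = 0.27, alternatives 1.57e-05 to 0.288).

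The products of glycosyltransferase genes attach sugars to hormones and secondary metabolites. Of the 5 loci, 3 were positive (60%, against 50.5% of all loci) and 1 was at an unadjusted p under 0.05 (20%, against 11.7%). That was UGT76C4 (Cs9g16640), at 1.94 and 8.80 CPM in pre-NEI GF, 5.58 and 29.6 CPM in NEI GF, 0.76 and 1.04 CPM in pre-NEI PU, and 0.302 and 0.201 CPM in NEI PU. The replicates of GF differed more than 4 times at both stages, and the NEI PU libraries held only 6 and 3 counts. The log2 difference of 3.48 had an interval of 0.14 to 6.82 (adjusted p = 0.415). UGT92A1 (orange1.1t03150) had 0 to 16 counts in the PU libraries, and its difference of 1.54 had an interval of -2.55 to 5.62.

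The 7 loci of phenylpropanoid enzymes and O-methyltransferases had a median of -1.60. Of these, 5 were negative and 2 positive (28.6%, against 50.5% of all loci). The hydroxycinnamoyl transferase gene HCT (Cs1g11780), at the branch towards lignin units, was the only one at an unadjusted p under 0.05 (14.3%, against 11.7%). It had no count in pre-NEI PU and 6 and 1 counts in NEI PU, with 9.57 to 21.2 CPM in GF, so no size is given. The leucoanthocyanidin reductase gene Cs7g12820 was at -1.60 (-4.14 to 0.94). None of the 4 class III peroxidase loci and none of the 3 antioxidant loci were at an unadjusted p under 0.05. The peroxidase gene orange1.1t02045 was nearest to it, at -2.33 (-4.70 to 0.03). The copper-zinc superoxide dismutase gene Cs3g12000 was at 0.51 (-0.50 to 1.52). PHGPx (Cs1g10745), a phospholipid hydroperoxide glutathione peroxidase, had 0 to 2 counts in each PU library, and its difference was not measurable at this depth.

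Transcription factors that miRNAs are predicted to target included a large negative difference. The TOE2-like gene Cs6g04120 (chromosome 6, bases 4751290 to 4755950) is an AP2-like predicted target of miR172, and TOE2 of Arabidopsis represses flowering. It was at 25.8 and 38.6 CPM in pre-NEI GF, 1.32 and 3.27 CPM in NEI GF, 1.52 and 0.561 CPM in pre-NEI PU, and 6.29 and 7.77 CPM in NEI PU. The cultivars changed places, with GF above PU at 0 days and below it at 3 days and no overlap at either. The difference of the changes was -6.53 (SE 0.88, -8.60 to -4.47, adjusted p = 0.219, alternatives 3.25e-10 to 0.288). It stayed between -7.53 and -6.03 when any 1 library was left out. The other 3 AP2-like loci lay between -0.63 and 1.49.

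Growth-regulating factors (GRFs) are predicted miR396 targets that promote cell proliferation in growing plant organs. Of the 8 loci tested, 6 were negative and 2 positive (25%, against 50.5% of all loci), with a median of -1.16. A single one, the GRF4-like gene Cs7g15220 (chromosome 7, bases 10878541 to 10892624), was at an unadjusted p under 0.05 (12.5%, against 11.7% of all loci). It was at 11.5 and 5.05 CPM in pre-NEI GF, 16.9 and 3.81 CPM in NEI GF, 4.45 and 4.57 CPM in pre-NEI PU, and 61.3 and 67.7 CPM in NEI PU. The NEI PU libraries were more than 3 times the highest of the other 6, and the 2 NEI GF libraries lay far apart. On the log2 scale the interaction was -3.50 (SE 0.96, -5.75 to -1.26, adjusted p = 0.33, alternatives 0.0201 to 0.37). The GRF8-like gene Cs5g01380 was at -1.16 (-2.36 to 0.04) and the GRF2-like gene orange1.1t02555 at -1.17 (-2.70 to 0.36).

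The 6 squamosa promoter-binding-like (SPL) loci are predicted targets of miR156 and miR535 and regulators of phase change in plants. Of these, 5 were negative and 1 positive (16.7%, against 50.5% of all loci), with a median of -0.79. At an unadjusted p under 0.05 there were 2 (33.3%, against 11.7% of all loci). The SPL3-like gene Cs2g05730 was at 8.10 and 7.70 CPM in pre-NEI GF, 4.86 and 8.17 CPM in NEI GF, 2.50 and 3.45 CPM in pre-NEI PU, and 11.6 and 6.43 CPM in NEI PU. At 3 days the cultivars overlapped, and pre-NEI PU was lowest. The interaction came to -1.88 (-3.44 to -0.32, adjusted p = 0.364). The SPL6-like gene Cs7g11770 was at -1.45 (-2.90 to -0.01).

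Auxin response factors and auxin receptors pointed both ways. Of the 8 loci, 2 were at an unadjusted p under 0.05 (25%, against 11.7% of all loci), 1 of each sign. ARF19 (Cs7g25670), an auxin response factor, was at 29.3 and 29.1 CPM in pre-NEI GF, 32.1 and 35.6 CPM in NEI GF, 27.3 and 22.3 CPM in pre-NEI PU, and 69.8 and 54.8 CPM in NEI PU. Its NEI PU libraries stood above the other 6. The estimate was -1.11 (SE 0.35, -1.94 to -0.29, adjusted p = 0.339).

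The auxin receptor gene AFB2 (Cs2g14270) had the opposite sign. It was at 136 and 213 CPM in pre-NEI GF, 117 and 158 CPM in NEI GF, 141 and 277 CPM in pre-NEI PU, and 62.7 and 64.8 CPM in NEI PU. The NEI PU libraries were the lowest. The log2 difference was 1.37 (0.10 to 2.65, adjusted p = 0.405). The related receptor gene TIR1 (Cs5g32500) was at -0.66 (-1.46 to 0.13). Among the HD-Zip III, NF-YA, GRAS, TCP and GAMYB, NAC, and other homeobox and MADS lists, with 2 to 7 loci each, no locus was at an unadjusted p under 0.05.

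**Figure D3:**
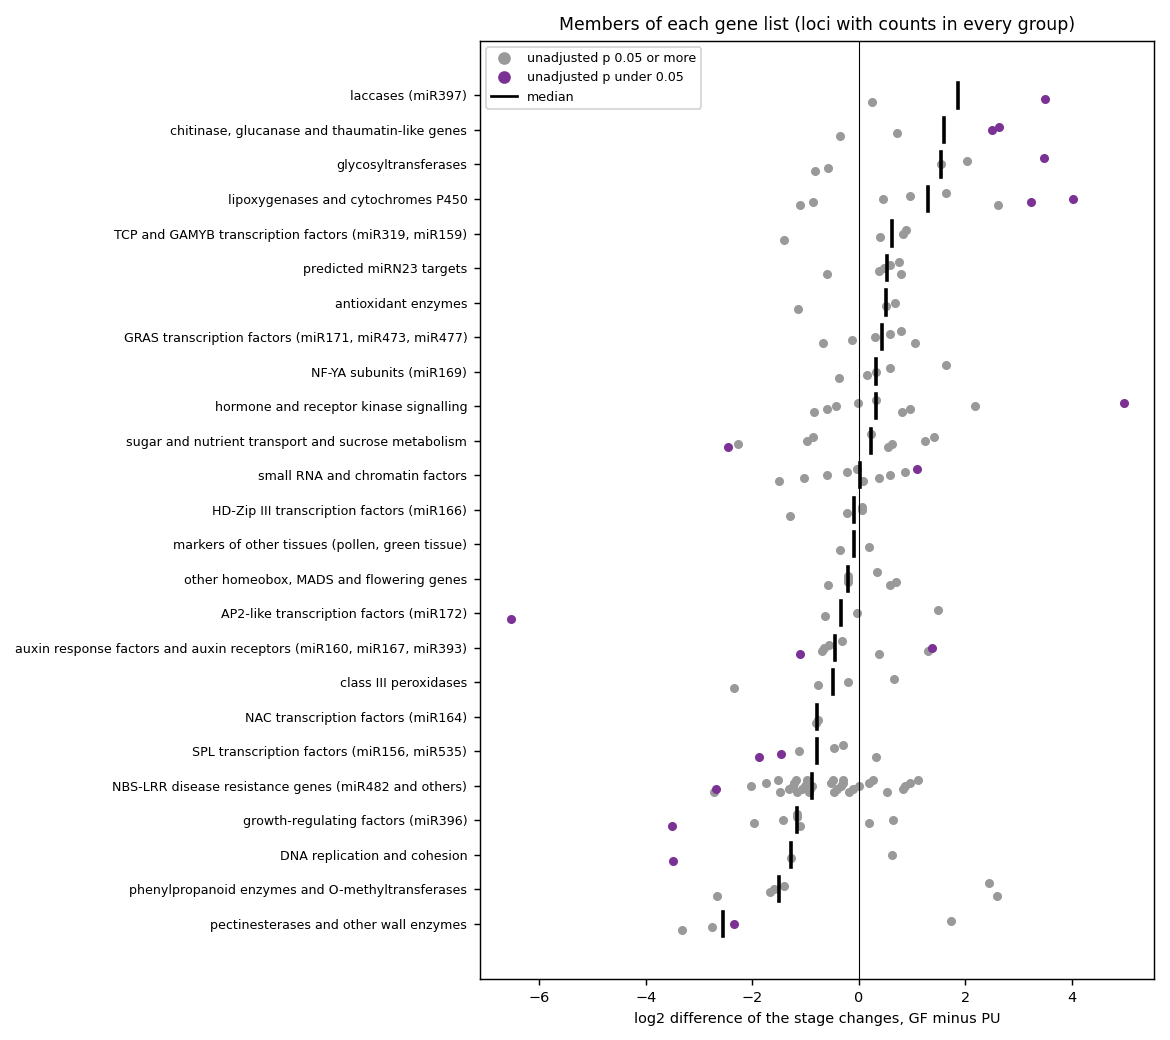
Log2 difference of the stage changes (GF minus PU, horizontal axis) of each member of 25 gene lists (points) with the median of the list (black bar), for loci with counts in every group. The GRF4-like gene at -3.50 and the TOE2-like gene at -6.53 lie to the left of the other members of their lists, and LAC at 3.49 lies to the right.

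In the list of small RNA and chromatin factors 5 of 10 loci were positive and the median was 0.02, with values from -1.50 to 1.09. The 3 loci of DNA replication and cohesion were at -3.48, -1.27 and 0.63. The first of these, described below, was at an unadjusted p under 0.05 (33.3%, against 11.7% of all loci). Of the 10 small RNA and chromatin loci, only 1 was at an unadjusted p under 0.05 (10%, against 11.7% of all loci). That was the SNF2-type chromatin-remodelling locus (Cs9g06423, Cs9g06426 and Cs9g06430). It was at 91.3 and 86.2 CPM in pre-NEI GF, 83.5 and 79.6 CPM in NEI GF, 63.2 and 69.6 CPM in pre-NEI PU, and 28.2 and 29.1 CPM in NEI PU. Replicates lay close together and the NEI PU libraries were lowest. This gave a log2 difference of 1.09 (SE 0.29, 0.41 to 1.76, adjusted p = 0.33). The locus overlapped another on the opposite strand.

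The Dicer-like 1 gene (orange1.1t00584), whose product cuts miRNAs from their precursors, was at -1.04 (-2.10 to 0.03), and a centromeric histone H3 gene (orange1.1t00474) at -1.50 (-3.05 to 0.06). The sister chromatid cohesion protein DCC1 gene (Cs1g02740), a clamp-loader subunit known from yeast, was at 14.9 and 5.77 CPM in pre-NEI GF, 5.52 and 6.15 CPM in NEI GF, 2.23 and 1.76 CPM in pre-NEI PU, and 6.14 and 19.3 CPM in NEI PU. The cultivars were apart at 0 days and overlapped at 3 days. The difference of the changes was -3.48 (-5.70 to -1.27, adjusted p = 0.33), and DESeq2 alone of the 4 tests called it. The 6 predicted targets of miRN23, an miRNA that the study described, had a median of 0.53 and none was at an unadjusted p under 0.05. One of them, the XS domain gene Cs9g06920, was at 0.59 (-1.03 to 2.20), a sign that turned without 1 library. The digalactosyldiacylglycerol synthase locus (orange1.1t00318 and orange1.1t00320), a chloroplast lipid enzyme, was at 0.76 (-0.10 to 1.62).

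Receptor kinases gave large differences of both signs. The L-type lectin-domain receptor kinase gene Cs8g12370, of a family of cell-surface sensors, was at 2.50 and 2.96 CPM in pre-NEI GF, 89.5 and 33.9 CPM in NEI GF, 0.543 and 0.722 CPM in pre-NEI PU, and 0.604 and 0.268 CPM in NEI PU. The NEI GF libraries stood far above the other 6. Each PU library held only 4 to 12 counts, so the size is uncertain beyond the interval. On the log2 scale the interaction was 4.97 (SE 0.86, 2.97 to 6.97, adjusted p = 0.28, alternatives 0.000104 to 0.346).

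The probably inactive leucine-rich repeat receptor-like kinase gene Cs2g12140 (chromosome 2, bases 9119500 to 9122207) was at 9.26 and 12.6 CPM in pre-NEI GF, 0.06 and 0.233 CPM in NEI GF, 3.58 and 2.17 CPM in pre-NEI PU, and 7.05 and 5.36 CPM in NEI PU. Its NEI GF libraries held 1 and 3 counts, while the other 6 were above 2 CPM. The interaction came to -7.33 (SE 0.88, -9.39 to -5.26, adjusted p = 0.208, alternatives 1.72e-09 to 0.288). The counted transcript was only 313 bases long, and the locus overlapped another on the opposite strand. With few counts in 1 group, the size of the difference is uncertain beyond the interval. The BAK1-like gene Cs6g20330, named for a co-receptor of brassinosteroid and defence receptors, had 5 and 23 counts in pre-NEI PU, no count in NEI PU, and 1.16 to 9.03 CPM in GF. The tests that called LAC called it too, and no size is given.

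The IQ-domain 14 gene (orange1.1t03542), of a calmodulin-binding family, had replicates close together in GF. It was at 424 and 423 CPM in pre-NEI GF, 741 and 803 CPM in NEI GF, 269 and 380 CPM in pre-NEI PU, and 131 and 109 CPM in NEI PU. The groups did not overlap, with NEI GF highest and NEI PU lowest. The estimate was 2.30 (SE 0.41, 1.33 to 3.27, adjusted p = 0.28, alternatives 4.85e-05 to 0.288), and it lay between 2.03 and 2.45 when any 1 library was left out.

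In hormone and receptor kinase signalling as a list, 6 of 10 loci were positive (60%, against 50.5% of all loci), 2 were at an unadjusted p under 0.05 (20%, against 11.7%) and the median was 0.56 (0.31 over the 9 loci with counts in every group). In sugar and nutrient transport, 1 of 10 loci was at an unadjusted p under 0.05 (10%, against 11.7%). That was the SWEET17-like sugar transporter gene orange1.1t04897, at 8.93 and 10.4 CPM in pre-NEI GF, 5.70 and 4.67 CPM in NEI GF, 2.06 and 1.44 CPM in pre-NEI PU, and 7.05 and 3.28 CPM in NEI PU. At 3 days the cultivars overlapped. The log2 difference was -2.45 (-4.08 to -0.82, adjusted p = 0.33), and DESeq2 alone of the 4 tests called it (adjusted p = 0.0496).

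NBS-LRR disease resistance genes, intracellular immune receptors, were negative in 28 of 35 loci and positive in 7 (20%, against 50.5% of all loci). Their median was -0.88 against 0.01 over all loci, and 1 of the 35 was at an unadjusted p under 0.05 (2.86%, against 11.7%). That 1 was the RGA3-like gene Cs1g09350, at 14.5 and 11.2 CPM in pre-NEI GF, 7.5 and 5.76 CPM in NEI GF, 31.1 and 11.3 CPM in pre-NEI PU, and 66.8 and 74.0 CPM in NEI PU. The NEI PU libraries were highest and the NEI GF libraries lowest. This gave a log2 difference of -2.68 (SE 0.66, -4.23 to -1.13, adjusted p = 0.33, alternatives 0.0166 to 0.363). Members of this family are near copies of each other, so reads may have been shared between loci and the 35 may not be separate observations.

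**Figure D4:**
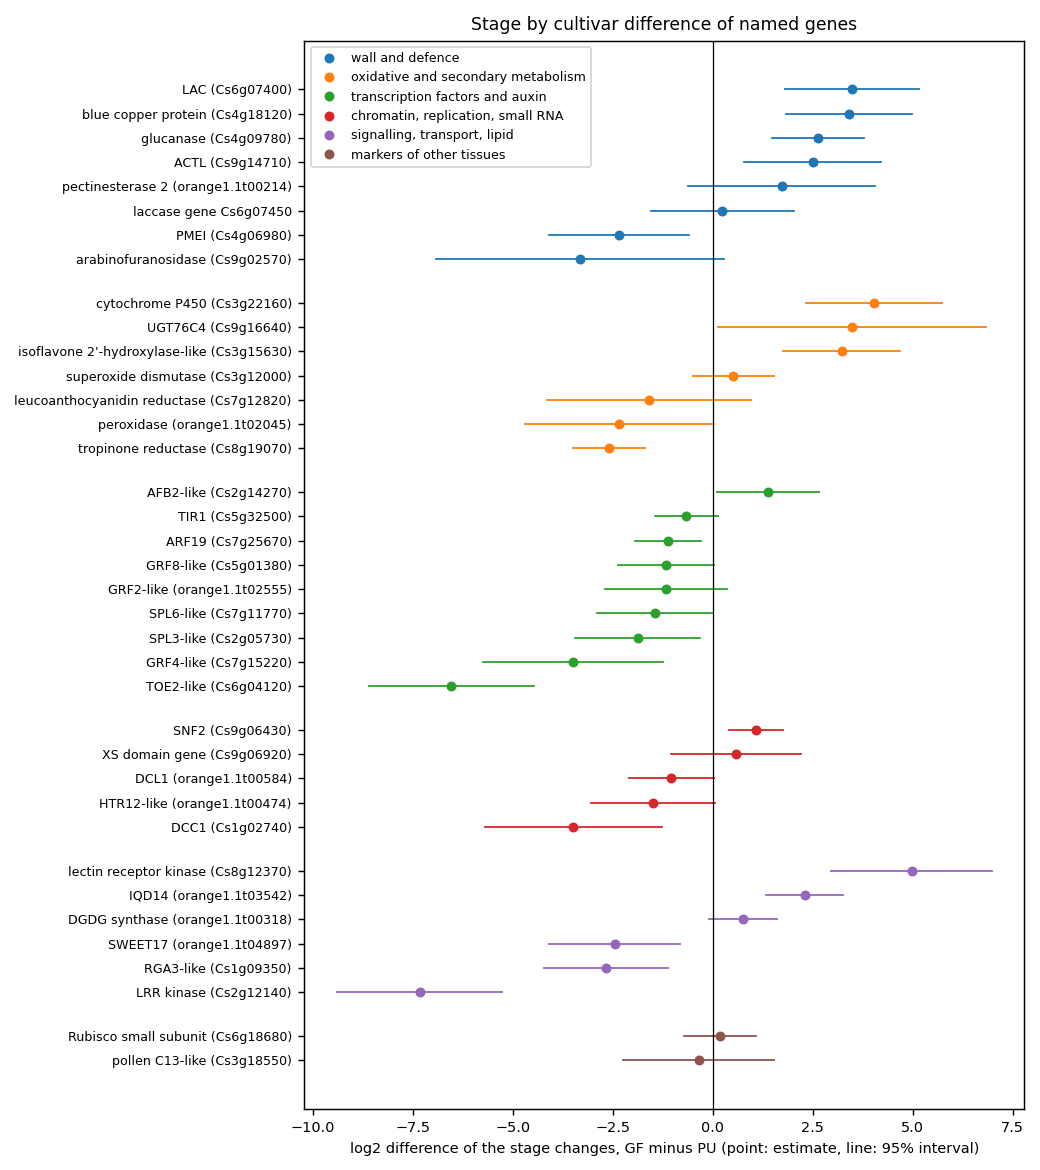
Log2 difference of the stage changes (GF minus PU, points) with 95% intervals (lines) for named genes, coloured by role, from LAC at 3.49 (1.80 to 5.17) at the top to the tissue markers at the bottom. No gene had an adjusted p under 0.05 in the main test, and intervals that leave out 0 are not corrected for the 19943 loci tested.

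The 4 loci with the smallest p had no function in the sources, and Cs2g12140 came after them. Cs9g15430 (chromosome 9, bases 14794356 to 14795195) had the smallest of all. It was at 317.9 and 513 CPM in pre-NEI GF, 57.6 and 67.6 CPM in NEI GF, 34.7 and 37.1 CPM in pre-NEI PU, and 190 and 140 CPM in NEI PU. GF was above PU at 0 days and below it at 3 days, with no overlap between any 2 groups. The difference of the changes was -4.93 (SE 0.46, -6.00 to -3.86, adjusted p = 0.173, alternatives 4.61e-18 to 0.191), and it lay between -5.24 and -4.55 when any 1 library was left out.

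Next came Cs3g03590 (chromosome 3, bases 3875798 to 3877908), at 1.22 and 2.11 CPM in pre-NEI GF, 15.3 and 33.7 CPM in NEI GF, 4.94 and 2.81 CPM in pre-NEI PU, and 0.352 and 0.201 CPM in NEI PU. The cultivars changed places here too, in the other direction. With 7 and 3 counts in the NEI PU libraries, the size is uncertain beyond the interval. On the log2 scale the interaction was 7.61 (SE 0.90, 5.50 to 9.73, adjusted p = 0.208, alternatives 6.97e-11 to 0.288). The smallest p after these belonged to a pair of overlapping loci without a reference gene that hold nearly the same reads (-5.01 for each), so they are 1 observation. Of the 243 loci that DESeq2 and the likelihood ratio test both called, 28 had no reference gene and 18 carried a gene of the lists.

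A broad list of 178 loci held genes that differ between poly- and monoembryonic ovules. Of these loci, 33 were at an unadjusted p under 0.05 (18.5%, against 11.7% of all loci), 18 of them positive and 15 negative. A group had no count at 26 of the 178, against 508 of the 19943 loci tested. With those groups at their floor, the median of the list moved from -0.24 to -0.08. The list was taken from the study, which had chosen it on these same samples, and is no independent evidence. Members of several narrow lists are in it too, among them LAC, UGT76C4, the lectin-domain kinase gene and the BAK1-like gene. The shares of those lists are no independent evidence either. The 353 loci of predicted miRNA targets had 31 at this p (8.78%, against 11.7% of all loci) and a median of 0.05, against 0.01 over all loci.

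The same difference in the mandarins of the series, polyembryonic Ponkan minus monoembryonic clementine from 3 to 7 days after flowering, came from a separate table, aligned to another genome and fitted alone, so values are set side by side and were not tested against each other. There, too, 0 of 18749 loci (0%) were called by the main test, with 1540 at an unadjusted p under 0.05 (8.21%), and DESeq2 called 246 (1.39%). Counterparts were at hand only for genes of the study's list, which had been chosen for like differences in both pairs. Like signs can follow from that choice and are no independent evidence. The counterpart of LAC was at 4.60 (2.91 to 6.29), beside 3.49 in GF and PU. The glucanase counterpart was at 2.35 (0.38 to 4.32) beside 2.63, that of ACTL at 2.82 (0.10 to 5.54) beside 2.50, and that of UGT76C4 at 4.34 (1.77 to 6.92) beside 3.48. Some others of like sign had intervals that held 0. The blue copper protein counterpart was at 2.39 (-0.82 to 5.59) beside 3.40, and that of the lectin-domain kinase gene at 5.07 (-0.44 to 10.58) beside 4.97. That of UGT92A1 was at 1.78 (-1.12 to 4.68) beside 1.54. The counterpart of the P450 gene Cs3g22160 was at 0 CPM in every Ponkan library, so no difference is given. Not every counterpart is listed here. The isoflavone 2'-hydroxylase-like counterpart was at 0.50 (-0.51 to 1.51) beside 3.23, and that of the tropinone reductase-like locus at 0.55 (-1.88 to 2.99) beside -2.59. Opposite signs were not limited to the tropinone reductase-like locus. The arabinofuranosidase counterpart was at 3.92 (0.86 to 6.98) beside -3.32. That of a peroxidase locus (orange1.1t02036 and orange1.1t02040) was at 2.20 (1.16 to 3.25) beside -0.77 (-3.42 to 1.89). Of 166 paired loci of the study's list that were kept in both tables, 104 had the same sign, and the list had been chosen for like differences in both pairs.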

How the data were processed

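Ovule mRNA was sequenced by the authors on an Illumina platform. GF and PU reads were aligned with TopHat and Bowtie to the sweet orange genome and assembled with Cufflinks (processing notes also name Cuffdiff). Tool and genome versions, read counter and strand setting are not given in the sources used here. The authors deposited whole-number values per transcript and library, without a stated unit, which were read as counts, and FPKM per group with replicates pooled, used in 1 check only (Spearman correlation of the FPKM and count interactions across 19943 loci, 0.717). Reads seem to be counted again for each isoform, so the largest transcript stood for its locus. Loci can carry several reference genes or overlap, and such counts are uncertain.

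All 8 libraries (11.8 to 34.2 megacounts) were fitted as 4 groups with edgeR 4.0.16 in R 4.3.3 (TMM, quasi-likelihood F test, Benjamini-Hochberg), and a call needed an adjusted p under 0.05 and an absolute log2 difference of at least 1. The exact test of the study compares only pairs of groups. Each SE was obtained as the absolute estimate over the root of F, and intervals use the t distribution with the fitted degrees of freedom. CPM are TMM-scaled. limma 3.58.1 and DESeq2 1.42.0 served as alternatives. The code was tested on simulated data. P-values measure the spread between libraries, which may be partly technical.

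The 25 narrow gene lists and the 2 broad ones, the rule for named genes and the contrast were chosen with earlier results of these data known. The rule named called loci with a function, up to 3 uncalled members of each narrow list with the smallest p, and 8 fixed genes. Since no locus was called, its first part named none. Cs9g15430, Cs3g03590, an overlapping pair of loci, Cs2g12140, Cs4g18120, orange1.1t03542, Cs1g09350 and the tropinone reductase-like locus lie outside the rule and were chosen after their values were seen, as were the members given in full. No sequence is shown. Alternatives were other scalings, filters, tests, locus sums, thinned counts, a replicate block and leaving out each library.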

Additional observations from a re-analysis of the deposited data

How the results depend on the processing

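The quasi-likelihood count of 0 loci called, in either direction, stayed at 0 with RLE or upper-quartile factors, limma-voom, robust dispersions (added after the data were seen), no filter, a filter of 5 CPM, sums over transcripts, thinned counts, an adjusted p under 0.1, no minimum log2 difference, and without any 1 library, where the smallest adjusted p ran from 0.054 (without replicate 1 of pre-NEI PU) to 0.526. DESeq2 called 456 loci (251 positive, 205 negative) and the likelihood ratio test 264 (133 and 131). In the mandarins DESeq2 called 246, and the quasi-likelihood count stayed at 0 without any 1 library. Beside 2338 loci at an unadjusted p under 0.05, there were 1468 without replicate 2 of NEI PU. Of the 167 loci of the narrow lists, 20 were at an unadjusted p under 0.05, and 20 to 37 without 1 library (37 without replicate 1 of pre-NEI PU).

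With the replicate number as a block, 0 loci were called in either pair of cultivars, 3731 loci were at an unadjusted p under 0.05 and 35 in the narrow lists. Lists with no locus at this p in the main test then had 1 (class III peroxidases, orange1.1t02045), 2 (TCP and GAMYB) and 2 (miRN23 targets). The shifts from replicate 1 to 2 correlated across loci at 0.0481 to 0.585 between the 6 pairs of GF and PU groups, and at 0.333 to 0.496 in the mandarins. The main fit was planned without a block, and the labels do not tie a replicate number to a year. In GF and PU the correlations of NEI PU with the pre-NEI groups were 0.0481 and 0.0896, and the others ran from 0.294 to 0.585. Whether a number marks a shared year was not settled. Other narrow lists gained loci at this p as well, most of all small RNA and chromatin factors, from 1 to 4. No locus became a call by the main threshold.

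For 45 genes named in the text, 490 of 491 log2 differences under alternatives that kept all libraries had the direction given. The exception was CHI (Cs5g21870), 0.71 in the main test and -0.26 with thinned counts. 17 of the genes passed the threshold under DESeq2 or the likelihood ratio test. Without 1 library, 9 of 360 values reversed, in 5 genes: CHI (-0.12 to 4.40), Cs6g07450 (-0.30 to 0.57), the Rubisco small subunit gene (-0.12 to 0.42), the pollen C13-like gene (-1.31 to 0.33) and Cs9g06920 (-0.067 to 1.1). A group left with 1 library was assumed to vary like the others. With 2 libraries per group and a median distance of 1.52 from estimate to interval end, log2 differences below about this size could not be told from 0 at most loci.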
